A study of Mus musculus with 10 samples.

Results

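The collagen gene family was examined in irradiated and unirradiated mouse fat. Its members were taken as every row of the deposited count files whose symbol has the form Col, a number, a and a number, which gave 44 of 24421 gene symbols. They were grouped as 11 fibrillar, 6 basement membrane, 6 microfibrillar and 21 other collagens. Total RNA was sequenced from the inguinal subcutaneous white fat of wild-type C57BL/6J mice. The fat was taken from the left hindlimb at day 70. In the FLASH group (4 libraries) that limb had received 33.3 Gy of electrons at ultra-high dose rate, and in the CONV group (3 libraries) the same dose at conventional rate, both from an ElectronFlash linear accelerator. The sham group (3 libraries) was not irradiated. The labels give no transgene or other agent and no age for any group, and all 10 libraries carry the label of batch 1. Nothing in them says whether each library came from a separate animal. The p-values therefore set group differences against the spread between these libraries, which may be technical.

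Collagens are proteins of 3 chains wound into a triple helix. The fibrillar types I, III and V form the cables of connective tissue, type IV forms the sheet-like network of basement membranes, and type VI forms beaded microfibrils next to cells. In white fat every adipocyte is wrapped in a basement membrane and lies in a mesh rich in collagen VI. Collagen accumulation in skin and underlying tissue is a known late effect of radiotherapy, which is the textbook reason to look at these genes after FLASH and CONV.

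FLASH replicate 3 and CONV replicate 2 stood apart from the other libraries. All 8 B cell marker genes lay above every sham library in both, with summed levels of 1844 CPM (counts scaled to library size) in FLASH replicate 3 and 2146 CPM in CONV replicate 2. The sums were 2.78 to 3.58 CPM in the other FLASH libraries, 3.16 and 6.98 CPM in the other CONV libraries and 1.66 to 3.86 CPM in sham. All 8 adipocyte markers lay below every sham library in the same pair, with sums of 4959 and 3249 CPM, against 21406 to 35406 CPM in the other 8 libraries. None of the B cell or adipocyte markers was at 0 in any library, and the tissue label fits the adipocyte sums of those 8. The pair is called lymphocyte-rich below, and results are given with all 10 libraries and without it. In bulk tissue, fewer cells of a type and less RNA per cell cannot be told apart. Other libraries differed too: summed skeletal muscle markers were 2396 CPM in CONV replicate 1, 722 CPM in sham replicate 3 and 387 CPM in FLASH replicate 2, against 1.76 to 53.4 CPM elsewhere. Summed fibroblast markers were 777 CPM in CONV replicate 3 and 1251 CPM in FLASH replicate 1, against 1622 to 2100 CPM in sham. In both libraries 7 of 8 lay below every sham library. The lymphocyte-rich FLASH and CONV libraries had fibroblast sums of 782 and 735 CPM, with 6 of 8 below every sham library in each. The remaining irradiated libraries had 1627 to 2458 CPM. Rn45s, the ribosomal RNA precursor, took 7.51% of gene counts in FLASH replicate 3, 8.39% in CONV replicate 2 and 5.27% in CONV replicate 3, against 1.79% to 3.27% in the other libraries. These 3 libraries also had the lowest collagen shares, and the part of Rn45s in the collagen values was not tested. The libraries held 22387877 to 36032027 gene counts, and 3 counts, the limit that a count of 0 allows by counting error alone, equal 0.0908 to 0.116 CPM.

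The 4 markers named for the family were all abundant. Per kb of exon, Col3a1 averaged 311 CPM per kb in sham fat, Col4a1 253, Col1a1 122 and Col6a3 81.1. This scale divides by all annotated exon bases of a gene, which need not be the length of the transcript present. The order between genes therefore depends on that length. Col1a2 has 12426 such bases and Col1a1 6563, and before scaling by length Col1a2 was the higher in sham (982 against 799 CPM). Col3a1, the single chain of type III collagen, was the highest collagen in sham on this scale, followed by Col4a1 and its partner Col4a2 (163 CPM per kb). Col6a1 stood at 116 and Col15a1 at 114 CPM per kb, close to Col1a1. The order thus put the mesh and basement membrane chains beside the fibril chains. The spread between sham libraries does not separate neighbours in this order: Col1a1 ran from 79.8 to 170.0, Col6a1 from 92.8 to 147 and Col15a1 from 72.7 to 135 CPM per kb.

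**Figure D1:**
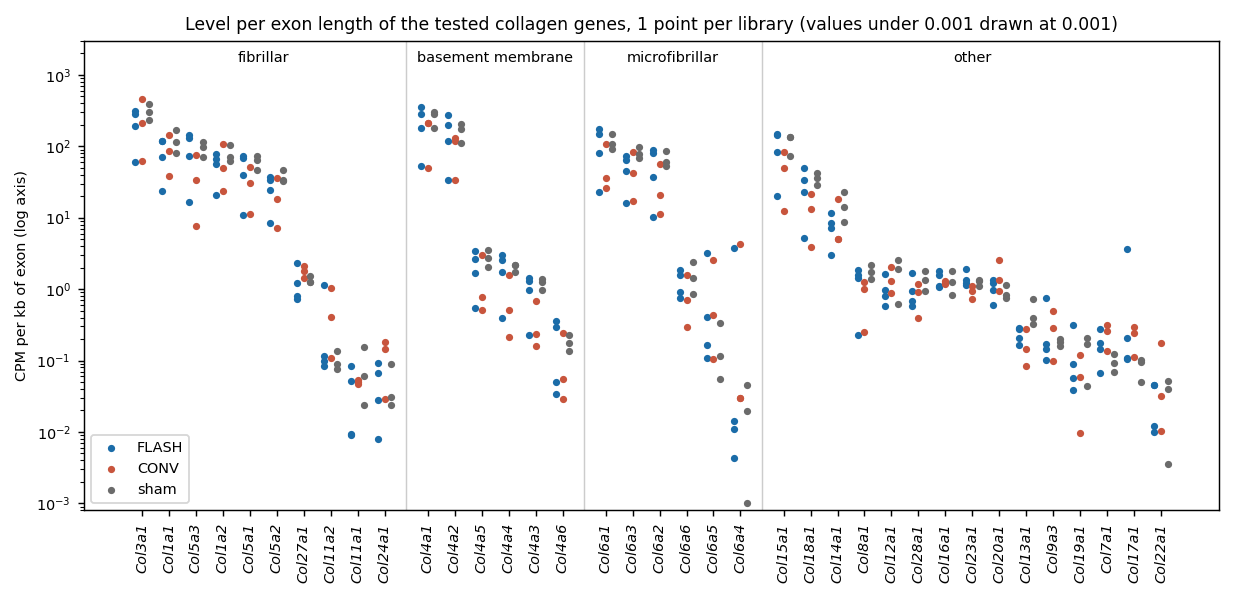
Level of the 37 tested collagen genes per exon length (CPM per kb, log axis), 1 point per library, in FLASH, CONV and sham from left to right within each gene. Genes are ordered within their class by the sham mean. Col3a1 (311 CPM per kb in sham) leads the fibrillar class, Col4a1 (253) the basement membrane class and Col6a1 (116) the microfibrillar class, and the lowest points of these 3 genes belong to FLASH replicate 3 and CONV replicate 2.

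A filter on low counts left 37 of the 44 collagens for testing. Untested with all 10 libraries were the cartilage collagens Col2a1, Col9a1, Col9a2 and Col10a1, the neuronal Col25a1, Col26a1 and the short-chain Col8a2. Each had 32 counts or fewer in every library, and Col10a1 had 0 or 1. Without the lymphocyte-rich pair Col8a2 passed the filter and Col6a4 did not, so 37 were tested again.

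Collagen genes together took 1.32%, 1.30%, 0.306% and 0.846% of the gene counts in FLASH replicates 1 to 4 and 1.32%, 0.314% and 0.678% in CONV replicates 1 to 3. The share was 1.20%, 1.54% and 0.963% in the sham libraries. The 2 lowest libraries were the lymphocyte-rich pair, and the groups overlapped. Summed collagen levels averaged 9743 ± 5439 CPM in FLASH (SD, n = 4), 7902 ± 5299 CPM in CONV (n = 3) and 12579 ± 3144 CPM in sham (n = 3). Without the pair the means were 12110 ± 3278 CPM in FLASH (n = 3) and 10512 ± 3909 CPM in CONV (n = 2). Without the pair the means differed by less than the SD of any group, while with all 10 libraries CONV lay below sham by more than the sham SD.

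**Figure D2:**
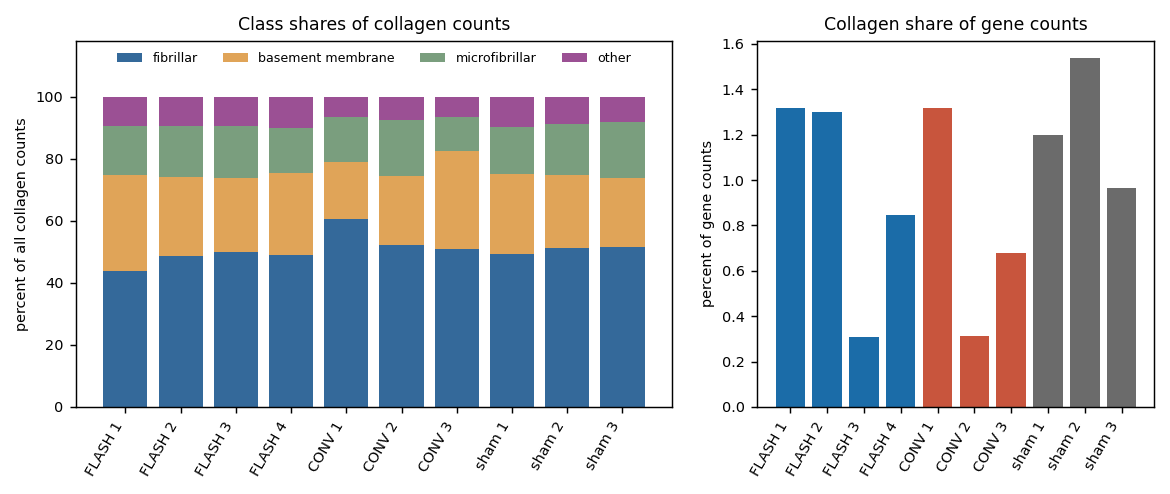
Left: the share of each collagen class in the summed collagen counts of a library (percent, stacked to 100). Right: the share of all collagen genes in the gene counts (percent), 1 bar per library with no error bar, FLASH in blue, CONV in red and sham in grey. The right panel shows FLASH replicate 3 (0.306%) and CONV replicate 2 (0.314%) far below the others, and the left panel shows that the class shares stayed much closer to each other than the totals.

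FLASH was set against sham first, to read the collagen genes after irradiation at ultra-high dose rate. No collagen passed an adjusted p under 0.05 in edgeR's quasi-likelihood test, which also passed 0 of all 15266 genes (0%). The lowest collagen adjusted p was 0.998 with all 10 libraries. At an unadjusted p under 0.05 stood 1 of 37 collagens, Col17a1, beside 0.648% of all genes. DESeq2 called 0 collagens too, as did limma voom, weighted by library quality or not, and all of these called 0% of the genes. Without the pair DESeq2 called 0 collagens beside 0.0263% of all genes, and limma voom 0 beside 0%. The FLASH libraries lay entirely above sham in 1 collagen, Col17a1 (2.44% of all genes), and entirely below in 1, Col13a1 (2.46%). Log2 fold changes were negative in 26 of 37 collagens (45.9% of all genes), with a median of −0.20 against 0.03 over all genes. Without the pair 21 of 37 were negative (51.5% of all genes) and the median was −0.03 against −0.01 over all genes. In that set 3 collagens stood at an unadjusted p under 0.05 (2.52% of all genes), and edgeR called 0 collagens and 0 of 15252 genes. FLASH lay above sham in 1 collagen (5.12%) and below it in 2 (4.65%) there.

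CONV and sham were compared for the conventional dose rate. No collagen passed in edgeR with all 10 libraries (lowest adjusted p 0.607) or without the pair (0.218). At an unadjusted p under 0.05 stood 3 of 37 collagens with all 10 libraries (5.82% of all genes) and 5 of 37 without the pair (13.3%). Over all genes edgeR called 0% and 0.0393% in the 2 sets. With all 10 libraries 0 collagens were called by DESeq2 (0.455% of all genes), limma voom (0%) and its quality-weighted form (0.00655%). Without the pair DESeq2 called 1 of 37, Col4a3, beside 4.45% of all genes, a share no higher than the background, and limma voom called 0 (0.0262%). Log2 fold changes were negative in 27 of 37 collagens in both sets (43.1% of all genes with 10 libraries, 48.7% without the pair). The median was −0.70 against 0.08 over all genes, and −0.42 against 0.01 without the pair. CONV lay entirely below sham in 5 collagens (9.13% of all genes) and above in 2 (8.55%). Without the pair the counts were again 5 below (13.2%) and 2 above (12.9%). The median without the pair and without CONV replicate 3 was −0.10, with CONV replicate 1 as the only CONV library.

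FLASH and CONV were set against each other directly. Again no collagen passed in edgeR (lowest adjusted p 0.999 with 10 libraries, 0.206 without the pair), and over all genes 0% and 0.0131% did. At an unadjusted p under 0.05 stood 0 of 37 collagens (2.97% of all genes) and 8 of 37 without the pair (13.7%). With all 10 libraries 0 collagens were called by DESeq2 (0.281% of all genes), limma voom (0%) and its quality-weighted form (0.00655%). Without the pair DESeq2 called 1 of 37, again Col4a3 and again below the background (4.39% of all genes), and limma voom called 0 (0.0197%). Log2 fold changes were negative in 15 of 37 (55.8% of all genes) and in 14 of 37 without the pair (53.1%), with medians of 0.33 and 0.25, against −0.04 and −0.02 over all genes. FLASH lay above CONV in 1 collagen (1.13% of all genes) and below it in 0 (1.13%). Without the pair FLASH lay above CONV in 6 tested collagens (12.8%) and below in 1 (13.3%). The FLASH and CONV contrasts against sham share the same sham libraries, so values for both are given side by side below.

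**Figure D3:**
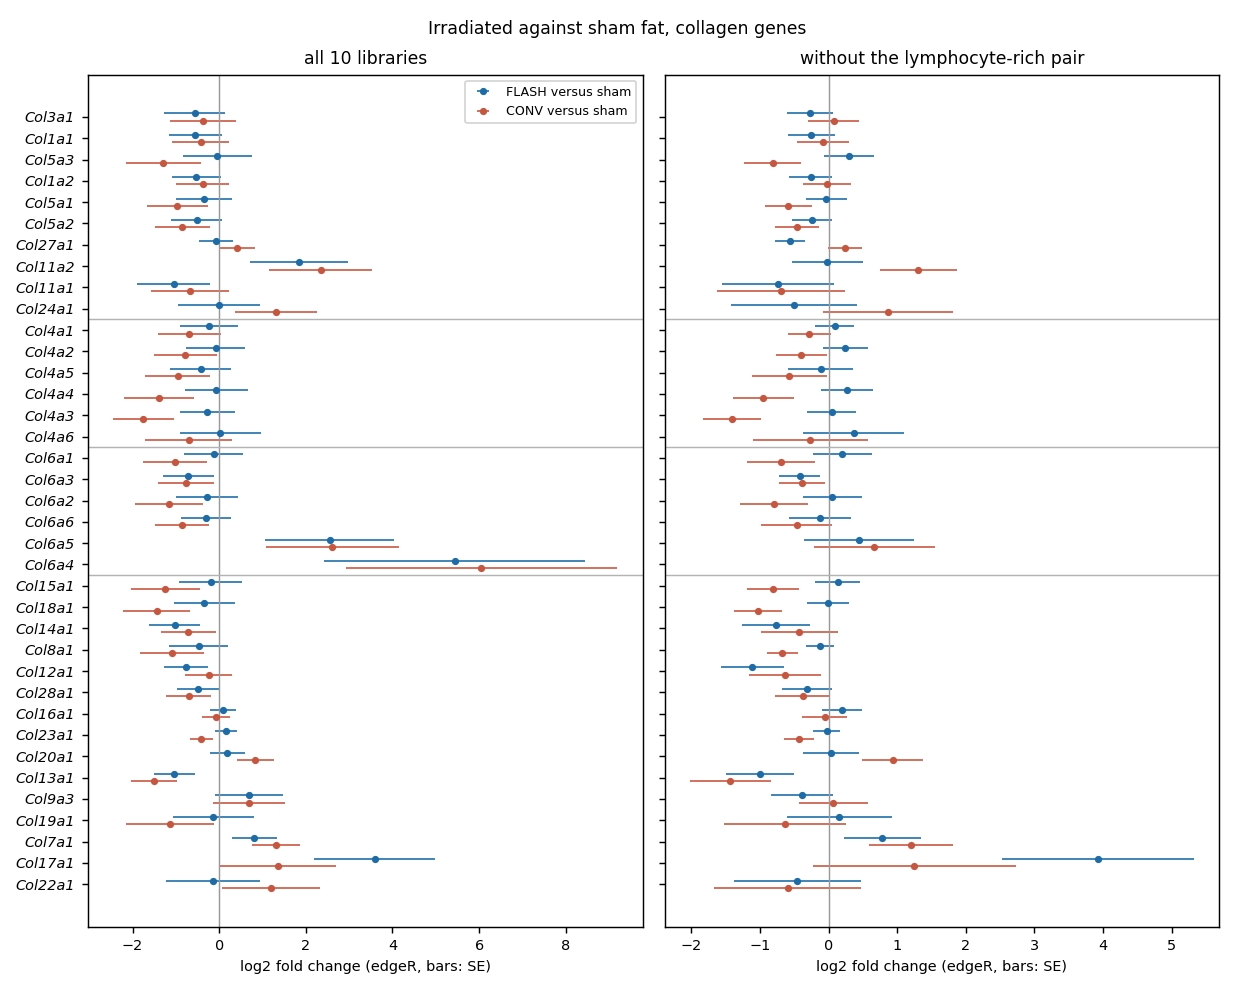
Log2 fold change of each collagen gene in FLASH against sham (blue) and CONV against sham (red), with bars of 1 SE from edgeR, with all 10 libraries on the left and without the lymphocyte-rich pair on the right. Horizontal lines part the fibrillar, basement membrane, microfibrillar and other classes. The widest bars, Col6a4 and Col6a5 on the left, belong to genes whose level comes from the pair, and with the pair left out the basement membrane genes all lie below 0 in CONV (median −0.48).

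Among the fibrillar collagens, Col3a1 had 2754, 3025, 581 and 1875 CPM in FLASH and 4438, 603 and 2052 CPM in CONV. The sham libraries had 2956, 3883 and 2316 CPM. Both lymphocyte-rich libraries were lowest, CONV replicate 1 was highest, and the groups overlapped. The log2 fold change was −0.57 ± 0.71 (SE) in FLASH and −0.37 ± 0.76 in CONV against sham, and −0.27 ± 0.34 and 0.07 ± 0.38 without the pair.

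Col1a1, the major chain of type I collagen, had 788, 775, 155 and 462 CPM in FLASH and 958, 249 and 572 CPM in CONV. Sham fat had 756, 1116 and 524 CPM. The ranges overlapped as for Col3a1. Against sham, Col1a1 had a log2 fold change of −0.55 ± 0.61 in FLASH and −0.43 ± 0.65 in CONV, or −0.25 ± 0.34 and −0.08 ± 0.38 without the pair. Its partner chain Col1a2 had −0.53 ± 0.56 in FLASH and −0.38 ± 0.61 in CONV. The ratio of the type I chains Col1a1 and Col1a2 per kb differed by less than the spread between libraries, at 1.44 ± 0.30 in FLASH (SD, n = 4), 1.56 ± 0.19 in CONV (n = 3) and 1.51 ± 0.21 in sham (n = 3). No increase of type I or III collagen mRNA at day 70 passed the test with either dose rate.

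Collagen V nucleates type I fibrils, and its chains differed in their values. Col5a3 had 991, 882, 113 and 499 CPM in FLASH and 508, 52.3 and 227 CPM in CONV, against 786, 655 and 481 CPM in sham. CONV replicates 2 and 3 lay below all sham libraries, and CONV replicate 1 lay among them. Its log2 fold change was −0.04 ± 0.80 in FLASH and −1.29 ± 0.87 in CONV against sham, and 1.24 ± 0.83 in FLASH against CONV. Without the pair the FLASH against CONV value was 1.11 ± 0.42 (edgeR adjusted p = 0.307), and 0.64 for Col5a3 when CONV replicate 3 was left out as well. Col5a1 had −0.97 ± 0.70 and Col5a2 −0.85 ± 0.63 in CONV against sham, and −0.35 ± 0.65 and −0.52 ± 0.58 in FLASH against sham.

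The minor fibrillar collagens were low. Col27a1, a cartilage-associated chain, had 9.39, 16.0, 30.3 and 10.3 CPM in FLASH and 18.5, 27.4 and 23.2 CPM in CONV, against 16.3, 16.4 and 19.6 CPM in sham. The lymphocyte-rich libraries were highest in their groups. The remaining 3 FLASH libraries lay below every sham and CONV library, and without the pair Col27a1 had a log2 fold change of −0.56 ± 0.22 in FLASH against sham and −0.80 ± 0.24 in FLASH against CONV (edgeR adjusted p = 1.00 and 0.222). With all 10 libraries the FLASH against sham value was −0.08 ± 0.39.

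Col11a2, a chain of the type XI fibril of cartilage, had 0.58, 0.80, 7.93 and 0.68 CPM in FLASH and 0.74, 7.05 and 2.76 CPM in CONV. The sham libraries had 0.52, 0.62 and 0.94 CPM. The pair was highest and CONV replicate 3 came next, while the other libraries overlapped. Without the pair the log2 fold change was −0.02 ± 0.52 in FLASH and 1.31 ± 0.56 in CONV against sham (edgeR adjusted p = 1.00 and 0.371). The CONV value of Col11a2 was 0.0818 when CONV replicate 3 was left out as well. Col11a1 stayed at 1.95 CPM or less in all libraries, and Col24a1 at 1.40 CPM or less.

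**Figure D4:**
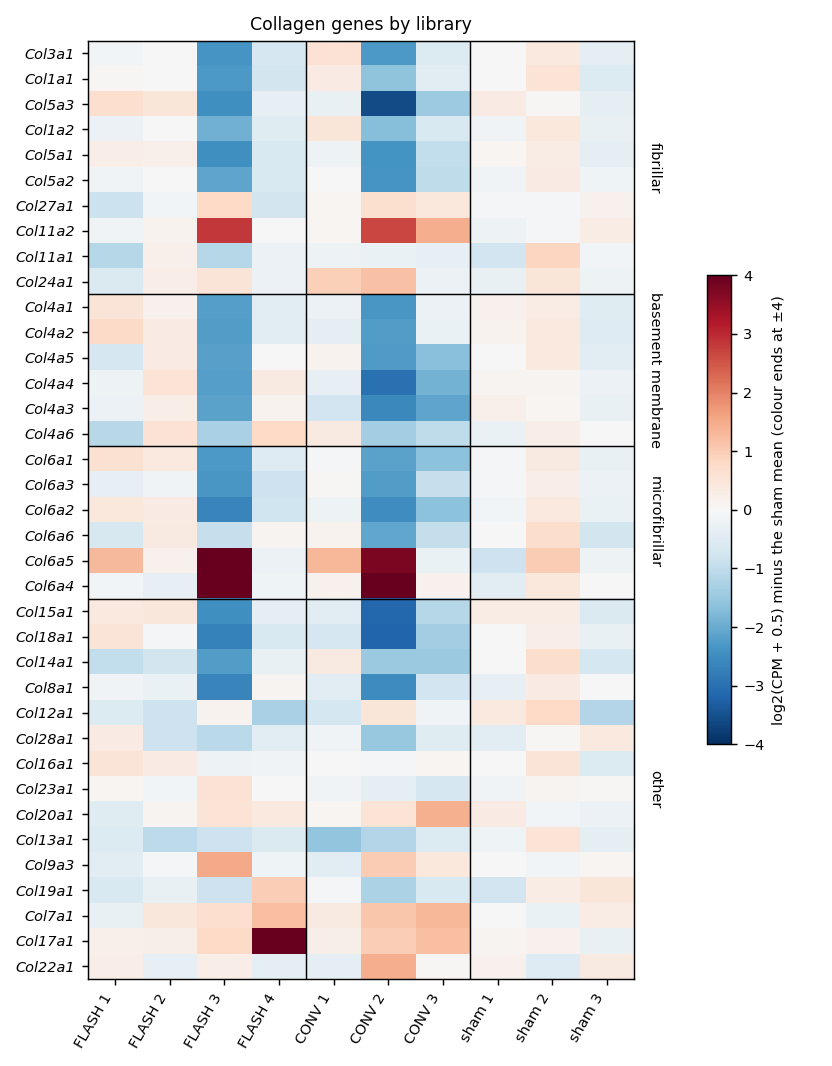
Level of each tested collagen in each library as log2(CPM + 0.5) minus the sham mean, with the colour scale ending at ±4 and classes parted by horizontal lines. FLASH 3 and CONV 2 are blue through most abundant genes and red for Col11a2, Col6a4 and Col6a5. Col17a1 is red in FLASH 4, and CONV 3 is blue for Col4a3, Col4a4, Col5a3, Col15a1 and Col18a1.

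The basement membrane class had negative log2 fold changes in 6 of 6 genes in CONV against sham, with a median of −0.87, and in 6 of 6 without the pair, with a median of −0.48. FLASH against sham gave 5 of 6 negative (median −0.15), and 1 of 6 without the pair (median 0.17). FLASH against CONV gave 6 of 6 positive, with medians of 0.72 and 0.64. These 6 chains sit in 3 head-to-head gene pairs and are not independent of each other, and none passed in edgeR.

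Col4a1 and Col4a2 form the network found in nearly every basement membrane. Col4a1 had 2604, 2094, 395 and 1359 CPM in FLASH and 1579, 368 and 1571 CPM in CONV, against 2082, 2257 and 1324 CPM in sham. Its log2 fold change was −0.23 ± 0.67 in FLASH and −0.69 ± 0.72 in CONV, and 0.09 ± 0.28 and −0.28 ± 0.32 without the pair. The groups overlapped in both sets. Col4a2 had −0.08 ± 0.68 in FLASH and −0.78 ± 0.73 in CONV. The ratio of Col4a1 to Col4a2 per kb was 1.46 ± 0.13 in FLASH (SD, n = 4), 1.61 ± 0.15 in CONV (n = 3) and 1.56 ± 0.07 in sham (n = 3). The annotated exons of the 2 genes overlap by 22 bases on opposite strands, and whether the counting used strand is not stated in any label or header.

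Col4a3 and Col4a4 belong to the type IV network best known from kidney and lung, and both were far below Col4a1 in this fat (1.19 and 2.02 against 253 CPM per kb in sham). Col4a3 had 9.81, 14.2, 2.27 and 12.9 CPM in FLASH and 6.69, 1.57 and 2.32 CPM in CONV. The sham libraries had 13.7, 12.4 and 9.58 CPM. All CONV libraries lay below all sham libraries, the FLASH libraries other than the lymphocyte-rich one lay above all CONV libraries and overlapped sham. The log2 fold change of Col4a3 in CONV against sham was −1.75 ± 0.70 (unadjusted p = 0.0343, edgeR adjusted p = 0.607), and −1.41 ± 0.42 without the pair (adjusted p = 0.218). In FLASH against CONV Col4a3 had 1.47 ± 0.67 with all libraries and 1.45 ± 0.42 without the pair (edgeR adjusted p = 0.206), and in FLASH against sham −0.28 ± 0.63 and 0.04 ± 0.36.

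Col4a3 is the collagen that DESeq2 called without the pair, at −1.40 in CONV against sham (DESeq2 adjusted p = 0.0255) and 1.45 in FLASH against CONV (DESeq2 adjusted p = 0.0196), where that tool called 4.45% and 4.39% of all genes. CONV then holds 2 libraries that differ from each other (6.69 and 2.32 CPM). Leaving out CONV replicate 3 as well brought the edgeR value in CONV against sham to −0.84, and leaving out CONV replicate 1 instead brought it to −2.38, where edgeR called Col4a3, Col4a4 and Col11a2 (adjusted p = 0.0152, 0.0231 and 0.0451) on CONV replicate 3 alone, whose spread was taken from the FLASH and sham groups. These are 3 of 38 collagens tested there, beside 7.22% of all genes, and FLASH against CONV gave the same 3 names beside 6.52%. In that set 0% of the genes were called in FLASH against sham. The summed fibroblast markers were 2458 CPM in CONV replicate 1 and 777 CPM in CONV replicate 3, where 7 of 8 lay below every sham library. FLASH replicate 1, with a sum of 1251 CPM, also had 7 of 8 below every sham library. Adipocyte sums of CONV replicates 1 and 3 were 23504 and 21649 CPM and endothelial sums 756 and 878 CPM, against 21406 to 27671 and 791 to 1047 CPM in sham. Mural sums in the same 2 libraries were 487 and 1101 CPM, against 760 to 884 CPM in sham. Of 6 mural markers 5 and 4 lay below every sham library, and 0 and 2 above. Macrophage sums were 1987 and 711 CPM, against 691 to 835 CPM in sham. The part of these marker lists in the Col4a3 result was not tested.

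Col4a4 had 18.7, 31.8, 4.24 and 27.4 CPM in FLASH and 16.9, 2.24 and 5.44 CPM in CONV, against 23.1, 23.04 and 18.2 CPM in sham. CONV again lay below sham in every library, by little in CONV replicate 1. The log2 fold change was −1.39 ± 0.80 in CONV against sham, and −0.95 ± 0.44 without the pair (edgeR adjusted p = 0.411). Leaving out CONV replicate 3 as well gave −0.35 for Col4a4, and leaving out CONV replicate 1 instead gave −2.01. FLASH against CONV gave 1.32 ± 0.76 for Col4a4, and 1.22 ± 0.45 without the pair (edgeR adjusted p = 0.291). Of the remaining chains, Col4a5 had −0.96 ± 0.76 and Col4a6 −0.70 ± 1.01 in CONV against sham, and −0.43 ± 0.70 and 0.02 ± 0.93 in FLASH against sham.

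Col4a3 (chr1:82586921-82722059, + strand) and Col4a4 (chr1:82448423-82586849, − strand; mm10, GENCODE M21) start back to back, and the gap between their annotated first exons is shown because both had their CONV libraries below sham. It is the 71 bases at chr1:82586850-82586920 of GRCm38.p6, from RefSeq, read on the − strand towards Col4a4:
Col4a4 to Col4a3: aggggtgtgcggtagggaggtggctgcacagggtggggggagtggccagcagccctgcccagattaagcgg
The gap is 69.0% G or C with 2 CpG and holds no GGGCGG box, no CCAAT box and no TATAAA box on either strand. Exons of Col4a3 overlap those of a long RNA, C430014B12Rik, by 563 bases on the opposite strand, and reads there cannot be told apart without strand.

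**Figure D5:**
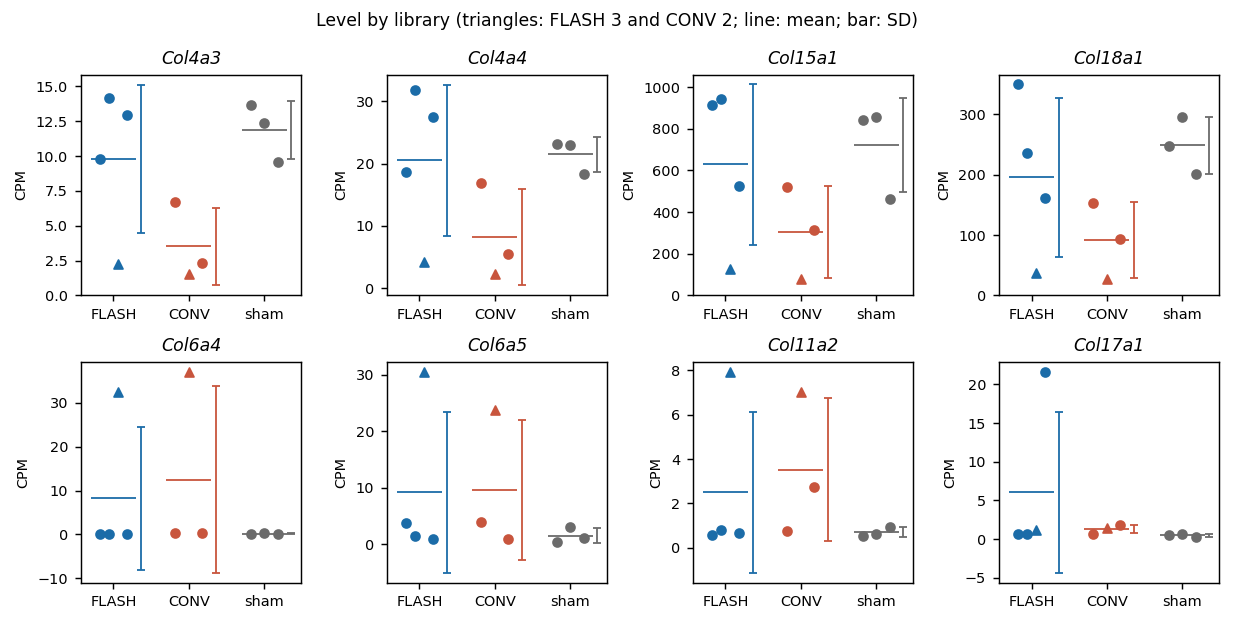
Level (CPM) of 8 collagens by library in FLASH, CONV and sham, with the group mean (line) and SD (bar at the side, n = 4, 3 and 3, which can reach below 0), and triangles for FLASH 3 and CONV 2. In the upper row every CONV point of Col4a3, Col4a4 and Col18a1 lies below every sham point, and the Col15a1 points of CONV and sham overlap. In the lower row Col6a4, Col6a5 and Col11a2 are high in the triangles, and Col17a1 is high in FLASH 4 alone (21.6 CPM).

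The microfibril chains Col6a1, Col6a2 and Col6a3 assemble into collagen VI, and the large chain Col6a3 is also the source of the fragment endotrophin. Col6a3 had 769, 876, 191 and 537 CPM in FLASH and 998, 205 and 505 CPM in CONV. Sham fat had 937, 1165 and 808 CPM. CONV replicates 2 and 3 and FLASH replicates 1, 3 and 4 lay below every sham library. The log2 fold change of Col6a3 was −0.71 ± 0.59 in FLASH and −0.77 ± 0.64 in CONV against sham, and −0.42 ± 0.29 and −0.39 ± 0.33 without the pair. Col6a1 had −0.12 ± 0.68 in FLASH and −1.03 ± 0.74 in CONV, and Col6a2 −0.28 ± 0.72 and −1.17 ± 0.78. The proportions of these chains varied. Col6a3 to Col6a1 per kb was 0.53 ± 0.13 in FLASH (SD, n = 4), 0.87 ± 0.26 in CONV (n = 3) and 0.71 ± 0.04 in sham (n = 3). Single values ran from 0.37 to 0.69 in FLASH and 0.67 to 1.16 in CONV, against 0.66 to 0.73 in sham, so the groups overlapped.

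Col6a4, Col6a5 and Col6a6 are alternative large chains that lie next to each other on chromosome 9. Col6a4 had 0.12, 0.04, 32.5 and 0.09 CPM in FLASH and 0.26, 37.0 and 0.26 CPM in CONV, against 0, 0.39 and 0.17 CPM in sham. It had 844 counts in FLASH replicate 3 and 1108 in CONV replicate 2, and 12 or fewer in each other library. Col6a5 had 3.88, 1.54, 30.5 and 1.02 CPM in FLASH and 4.03, 23.7 and 0.99 CPM in CONV, against 0.52, 3.12 and 1.08 CPM in sham. Both genes were thus high in the lymphocyte-rich pair and low elsewhere, with overlap of the other libraries. The same pair held the B cell sums given above, whose part in these values was not tested. Col6a5 had a log2 fold change of 2.55 ± 1.49 in FLASH against sham with all libraries and 0.44 ± 0.80 without the pair, and 2.61 ± 1.54 and 0.67 ± 0.88 in CONV against sham. Col6a4 had 5.44 ± 3.01 in FLASH and 6.05 ± 3.14 in CONV with all libraries. Col6a6 did not follow them, with −0.30 ± 0.58 in FLASH and −0.86 ± 0.63 in CONV against sham, and 6.78 and 2.74 CPM in the lymphocyte-rich FLASH and CONV libraries.

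Among the other collagens, Col15a1 and Col18a1 are the multiplexins, which sit in the zone around basement membranes, and Col18a1 is the source of endostatin. Col15a1 had 916, 945, 128 and 527 CPM in FLASH and 521, 78.3 and 313 CPM in CONV, against 844, 857 and 461 CPM in sham. Col18a1 had 349.7, 236, 36.9 and 161 CPM in FLASH and 153, 27.0 and 94.1 CPM in CONV, against 248, 296 and 202 CPM in sham. All CONV libraries lay below all sham libraries for Col18a1, and for Col15a1 CONV replicate 1 lay within the sham range. In CONV against sham Col18a1 had −1.44 ± 0.77 and −1.03 ± 0.35 without the pair (edgeR adjusted p = 0.607 and 0.264), and Col15a1 −1.25 ± 0.80 and −0.81 ± 0.38, or −0.48 when CONV replicate 3 was left out as well. In FLASH against sham the values were −0.34 ± 0.71 for Col18a1 and −0.20 ± 0.73 for Col15a1, or −0.01 ± 0.30 and 0.13 ± 0.33 without the pair. FLASH against CONV without the pair gave 1.02 ± 0.35 for Col18a1 and 0.94 ± 0.38 for Col15a1 (edgeR adjusted p = 0.258 and 0.335).

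The short-chain network collagen Col8a1, of vessel walls, had 12.2, 11.2, 1.77 and 14.5 CPM in FLASH and 9.70, 1.97 and 7.83 CPM in CONV, against 10.8, 17.1 and 13.5 CPM in sham. CONV lay below sham in every library. Its log2 fold change in CONV against sham was −1.09 ± 0.74, and −0.67 ± 0.23 without the pair (edgeR adjusted p = 0.607 and 0.272), beside −0.47 ± 0.68 and −0.13 ± 0.20 in FLASH against sham.

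Fibril-associated collagens decorate type I fibrils. Col14a1 had 50.05, 59.6, 20.8 and 81.2 CPM in FLASH and 127, 35.2 and 35.3 CPM in CONV, against 100.2, 161 and 61.1 CPM in sham. Col12a1 had 14.8, 12.2, 24.4 and 8.71 CPM in FLASH and 13.3, 31.1 and 20.04 CPM in CONV, against 28.7, 38.3 and 9.48 CPM in sham. The sham libraries spread widely in both genes, and the groups overlapped in all comparisons. In FLASH against sham Col12a1 had −0.76 ± 0.51 and −1.11 ± 0.46 without the pair (unadjusted p = 0.0438, edgeR adjusted p = 1.00), and Col14a1 −1.02 ± 0.59 and −0.76 ± 0.50. Col20a1 had 3.12, 5.05, 6.93 and 6.18 CPM in FLASH and 4.90, 6.88 and 13.2 CPM in CONV, against 5.89, 4.26 and 3.83 CPM in sham. Its log2 fold change in CONV against sham was 0.84 ± 0.43, and 0.32 without CONV replicate 3. Col9a3, Col16a1, Col19a1, Col22a1 and Col28a1 had absolute log2 fold changes of at most 0.70 in FLASH against sham. In CONV against sham Col22a1 had 1.19 and Col19a1 −1.13, both with SEs of over 1 and overlapping libraries, and the other 3 had at most 0.70.

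The transmembrane collagens were low. Col13a1, known from the neuromuscular junction, had 1.30, 0.77, 0.96 and 1.27 CPM in FLASH and 0.38, 0.67 and 1.29 CPM in CONV, against 1.82, 3.32 and 1.51 CPM in sham. Both irradiated groups lay below sham in every library. The log2 fold change was −1.04 ± 0.47 in FLASH and −1.50 ± 0.52 in CONV (unadjusted p = 0.0555 and 0.0180, edgeR adjusted p = 0.998 and 0.607), and −0.998 ± 0.501 and −1.43 ± 0.59 without the pair. Raw counts of Col13a1 were 21 to 43 in FLASH and 12 to 35 in CONV, against 45 to 102 in sham.

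Col17a1, the hemidesmosome collagen of basal keratinocytes, had 0.64, 0.66, 1.23 and 21.6 CPM in FLASH and 0.67, 1.44 and 1.76 CPM in CONV, against 0.58, 0.62 and 0.30 CPM in sham. FLASH replicate 4 alone was high, and FLASH replicates 1 and 2 exceeded the highest sham library by little. The log2 fold change in FLASH against sham was 3.59 ± 1.39 (unadjusted p = 0.0300, edgeR adjusted p = 0.998), and 0.75 without FLASH replicate 4. In that library all 8 keratinocyte markers lay above every sham library, with a sum of 179 CPM, against 1.46 to 3.48 CPM in the other FLASH libraries, 2.82 to 12.3 CPM in CONV and 2.69 to 6.44 CPM in sham. Of these markers Lor was at 0 in 2 sham libraries, and Krt5 and Dsg3 in 1. Their part in the Col17a1 value was not tested. Col7a1, the anchoring fibril collagen below the epidermis, had 0.70, 1.50, 1.81 and 2.87 CPM in FLASH and 1.38, 2.67 and 3.20 CPM in CONV, against 0.94, 0.72 and 1.28 CPM in sham. CONV lay above sham in every library, with a log2 fold change of 1.30 ± 0.55 (unadjusted p = 0.0427, edgeR adjusted p = 0.607), beside 0.81 ± 0.52 in FLASH. Keratinocyte sums in CONV replicates 2 and 3 were 12.3 and 12.2 CPM, and their part in the Col7a1 value was not tested either. Col23a1, another transmembrane collagen, lay above CONV in every FLASH library (7.57, 6.51, 10.8 and 6.95 CPM in FLASH, against 6.43, 5.34 and 4.23 CPM in CONV), with a log2 fold change of 0.58 ± 0.26 (edgeR adjusted p = 0.999).

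Because the amount of collagen mRNA differed so much between libraries, each gene was also expressed as a percent of the summed collagen counts of its library. This measure was chosen after the data were seen, and no p-value was computed on it. Each collagen is part of its own sum and genes outside the family are not, so a count over all genes is not a like background. None is given, and the shares are a description.

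Col5a3 took 6.89%, 6.48%, 4.29% and 5.97% of collagen counts in FLASH and 3.83%, 1.95% and 2.93% in CONV, against 6.18%, 4.19% and 5.13% in sham. Col15a1 took 6.37%, 6.95%, 4.83% and 6.31% in FLASH and 3.93%, 2.92% and 4.03% in CONV, against 6.64%, 5.48% and 4.93% in sham. Col18a1 took 2.43%, 1.74%, 1.40% and 1.93% in FLASH and 1.15%, 1.01% and 1.21% in CONV, against 1.95%, 1.89% and 2.15% in sham. For these 3 genes the lymphocyte-rich CONV library was the lowest of its group, and every CONV library lay below every FLASH library. The shares of Col4a3 and Col4a4 were parted in the same direction, with nearest values of 0.0585% and 0.0683% for Col4a3 and 0.128% and 0.130% for Col4a4. These genes were picked after their values were seen, and how many of the collagens are parted in this way was not counted. Such a parting is therefore not read as a difference between the dose rates. The shares of a library add up to the whole, so lower shares of some genes bring higher shares of others. Col1a1 stood the other way round, at 5.49%, 5.70%, 5.87% and 5.53% in FLASH and 7.22%, 9.28% and 7.38% in CONV, against 5.94%, 7.13% and 5.59% in sham. Col3a1 took 19.2%, 22.2%, 22.0% and 22.5% in FLASH and 33.4%, 22.5% and 26.5% in CONV, against 23.2%, 24.8% and 24.7% in sham. Every FLASH library lay below every sham library for Col3a1, the nearest values being 22.5% and 23.2%. The FLASH libraries also lay below every CONV library for Col3a1, but the nearest values were 22.45% and 22.48%.

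By class, the other collagens took 9.58%, 9.51%, 9.38% and 10.1% of collagen counts in FLASH and 6.43%, 7.68% and 6.57% in CONV, against 9.93%, 8.99% and 8.31% in sham. CONV lay below both groups in every library. The multiplexins Col15a1 and Col18a1 belong to this class, and their part in the class share was not tested. The fibrillar share was 43.8% to 49.9% in FLASH and 50.8% to 60.7% in CONV, against 49.1% to 51.5% in sham. The basement membrane share overlapped between all groups, at 23.8% to 30.9% in FLASH and 18.2% to 31.7% in CONV, against 22.4% to 25.9% in sham.

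The bases just upstream are shown for Col15a1 and Col5a3, whose shares were lower in CONV than in FLASH libraries, and for Col3a1 as the most abundant chain per kb in sham. Each line gives 100 bases before the RefSeq start in GRCm38.p6, 5′ to 3′ on the strand of the gene, with capitals marking GGGCGG or its reverse complement. They come from chr4:47207912-47208011 (+ strand), chr9:20815068-20815167 (− strand) and chr1:45311438-45311537 (+ strand).
Col15a1: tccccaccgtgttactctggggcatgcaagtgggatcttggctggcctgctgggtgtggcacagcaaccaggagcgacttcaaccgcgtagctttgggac
Col5a3: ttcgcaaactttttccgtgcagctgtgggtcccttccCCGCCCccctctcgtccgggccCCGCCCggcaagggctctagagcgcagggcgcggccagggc
Col3a1: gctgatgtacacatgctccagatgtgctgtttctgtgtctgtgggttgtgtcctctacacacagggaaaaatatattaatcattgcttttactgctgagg
The Col5a3 window is 72% G or C with 2 GGGCGG, the Col15a1 window 61% with 0, and the Col3a1 window 43% with 0 and no CpG. The window of Col18a1, whose shares were also lower in CONV, is not printed. It overlaps annotated exon sequence of Col18a1 and is 73% G or C with 3 GGGCGG. Of the 44 collagens 35 have an entry of 250 upstream bases. The median share of G or C was 59.6% in these entries, against 55.6% over all genes with an entry. GGGCGG occurs on either strand in 21 of these 35 (60%), against 43.1% of 17224 genes with an entry. CCAAT occurs in 12 (34.3%, against 35.9% of all) and TATAAA in 5 (14.3%, against 11.9%). Each motif was counted by itself, also where its letters overlap those of another. A match describes letters only.

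Genes that make, bind or cut collagen were read beside the family, and a selection of them is named. Of 29 processing enzymes and chaperones 28 were tested and 0 passed in edgeR in any comparison. Their median log2 fold change was −0.15 in FLASH and −0.24 in CONV against sham, and 0.00 and −0.06 without the pair. Plod2, the lysyl hydroxylase of the collagen telopeptides, which sets the type of cross-link, had 12.9, 15.7, 8.70 and 18.2 CPM in FLASH and 35.9, 8.65 and 40.01 CPM in CONV, against 14.8, 18.8 and 21.9 CPM in sham. CONV replicates 1 and 3 lay above all other libraries and the lymphocyte-rich CONV library below. Without the pair Plod2 had a log2 fold change of 1.02 ± 0.20 in CONV against sham and −1.27 ± 0.20 in FLASH against CONV (edgeR adjusted p = 0.106 and 0.0931). The glycosyltransferase Colgalt2 had −0.74 ± 0.29 in FLASH and −0.76 ± 0.31 in CONV against sham, below every sham library in both groups. Pcolce, which enhances the cutting of procollagen, had −0.64 ± 0.35 in FLASH, and P4ha2, a prolyl hydroxylase subunit, −0.86 ± 0.56 in CONV. Adamts3, a procollagen N-proteinase, had 1.09 ± 0.37 in CONV.

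Of 10 collagen-binding leucine-rich proteoglycans 9 were tested, with 7 of 9 negative in FLASH and 8 of 9 in CONV against sham (medians −0.48 and −0.84, or −0.27 and −0.49 without the pair). None passed in edgeR. Aspn, a small proteoglycan that binds collagen fibrils, had 54.0, 52.8, 10.9 and 46.1 CPM in FLASH and 41.2, 9.59 and 22.8 CPM in CONV, against 66.2, 87.0 and 74.2 CPM in sham. Both irradiated groups lay below sham in every library. Its log2 fold change was −0.89 ± 0.57 in FLASH and −1.63 ± 0.63 in CONV, and −0.58 ± 0.22 and −1.26 ± 0.25 without the pair (edgeR adjusted p = 1.00 and 0.104). Prelp, which anchors basement membranes to connective tissue, had −1.56 ± 0.88 in CONV against sham with all 10 libraries. In the set without the pair Prelp had 1.55 ± 0.39 in FLASH against CONV (edgeR adjusted p = 0.167). Podn had −0.95 ± 0.65 in CONV. Dcn and Lum are in both this list and the fibroblast marker list.

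Of 12 collagen receptors 11 were tested and 0 passed in edgeR. Their median log2 fold change was −0.22 in FLASH and −0.59 in CONV against sham, and −0.14 and −0.31 without the pair. The integrin chain Itga10 had 1.05 ± 0.38 in CONV against sham, above every sham library. The kinase receptor Ddr1 had −1.08 ± 0.40, below every sham library. The immune receptor Lair1 was high in the lymphocyte-rich libraries (31.9 CPM in FLASH replicate 3, 29.8 CPM in CONV replicate 2) and had 22.4 CPM in CONV replicate 1. Of 10 collagen-degrading enzymes 8 were tested and 0 passed, with medians of −0.20 in FLASH and −0.24 in CONV against sham. The collagenase Mmp13 had 1.15, 0.33, 0.31 and 0.49 CPM in FLASH and 0.16, 0.23 and 0 CPM in CONV, against 0.61, 0.46 and 0.54 CPM in sham, a log2 fold change of −1.97 ± 0.90 in CONV against sham (edgeR adjusted p = 0.607).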

How the data were processed

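Total RNA from 10 libraries had been sequenced, and the authors deposited raw counts per gene symbol, 1 file per library. The build mm10 and the tool kallisto 0.5.0 are named, per the submitters' processing notes, but the deposited files end with 5 entries in the style of htseq-count. Entries given to no gene held 52.0% to 69.6% of a file's count and were left out. No label or header names the aligner, the annotation or the strand setting.

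From these counts 1 edgeR 4.0.16 quasi-likelihood fit (R 4.3.3, limma 3.58.1) was made over all 10 libraries, with filterByExpr, TMM scaling, robust dispersion and Benjamini-Hochberg adjustment over all tested genes within a comparison, at a threshold of 0.05. Standard errors are the absolute log2 fold change divided by the root of F. The fit was repeated without FLASH replicate 3 and CONV replicate 2. CPM are after TMM, and per-kb levels use the union of all exons annotated for a gene in GENCODE M21, which matched 95.7% of symbols. Alternatives were DESeq2 1.42.0, limma voom with and without quality weights, RLE and total-count scaling, no filter, a filter of 1 CPM in 3 libraries, only the groups compared, a replicate block and leaving out each library. The edgeR steps were also run on simulated counts with known changes set in CONV. That simulation held no lymphocyte-rich libraries, so it does not show how well changes would be found in these data. Figures used Python 3.11.15 and matplotlib 3.10.9.

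The collagens, marker lists and other lists were chosen with earlier results of these data known. Collagens named were Col1a1, Col3a1, Col4a1 and Col6a3, the partners Col1a2, Col4a2, Col5a1, Col5a2, Col6a1 and Col6a2, the 5 smallest p per comparison and library set, and the 3 highest per class per kb in sham. For the other lists the plan was to name the 3 smallest p per list and comparison. The text does not hold to that plan and names only a selection of their genes. The shares within collagen counts and the genes described from them were chosen after the values were seen.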

Additional observations from a re-analysis of the deposited data

Results flagged for a closer look

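In 28 named genes the highest and lowest FLASH library were compared with the nearest other FLASH library, and a gap past Dixon's critical value counted as far from the others, which chance gives in about 5% of groups. Such a gap was found in 4 genes, a smaller share than the 22.3% of all 15266 tested genes that showed one. FLASH replicate 3 was the library apart in 20.9% of all tested genes and FLASH replicate 4 in 0.681%. FLASH replicate 4 had 21.6 CPM of Col17a1, a gap of 0.972 of the range. FLASH replicate 3 had 32.5 CPM of Col6a4 (0.997 of the range), 30.5 CPM of Col6a5 (0.903) and 7.93 CPM of Col11a2 (0.969). CONV replicate 2 held 37.0 CPM of Col6a4, 23.7 CPM of Col6a5 and 7.05 CPM of Col11a2, but groups of 3 libraries were not examined in this way.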

How the results depend on the processing

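Of 38 fold changes of named genes, 26 kept their direction under every alternative run and 12 reversed under at least one. Of their 1165 values, 55 reversed, and the cause was not tested. Col4a3 newly passed the threshold with DESeq2 without the lymphocyte-rich pair, in CONV against sham and in FLASH against CONV. All other new passes came without the pair and CONV replicate 1, with CONV replicate 3 as the only CONV library.

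Over all genes, CONV against sham had 66 calls with DESeq2 and 1 with quality-weighted limma voom. Without the lymphocyte-rich pair it had 6 with edgeR, 663 with DESeq2, 4 with limma voom and 6 with RLE scaling. FLASH against CONV had 40 with DESeq2 and 1 with quality-weighted limma voom, and without the pair 2, 667, 3 and 2 in the same order of tools. FLASH against sham had 4 with DESeq2 without the pair. Collagens called without the pair were 1 in CONV against sham and 1 in FLASH against CONV, both with DESeq2.

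Col27a1 in FLASH against sham was 0.0115 with total-count scaling, Col6a4 there was −1.10 with quality weights, and Col17a1 in FLASH against CONV was −0.59 with the replicate block. Without the pair, Col4a1 in FLASH against sham was 0.0864 with edgeR, 0.10 with DESeq2, 0.0787 with limma voom and 0.10 with RLE. Col3a1 in CONV against sham was 0.0718, 0.0855 and 0.0855 with edgeR, DESeq2 and RLE, and Col6a3 in FLASH against CONV −0.0383, −0.0450 and −0.0450.

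Leaving out each library in turn, with and without the pair, gave 0 to 1134 genes called in CONV against sham and 0 to 1025 in FLASH against CONV, and 0 to 3 collagens in each. The highest counts came without the pair and CONV replicate 1. The collagen median in CONV against sham ran from −1.06 to −0.10. In FLASH against sham Col1a1 ran from −0.78 to 0.0673, Col4a1 from −0.56 to 0.30, Col6a4 from −1.09 to 6.55, Col6a5 from −0.30 to 3.51 and Col27a1 from −0.84 to 0.11. In CONV against sham Col1a1 ran from −0.97 to 0.25, Col3a1 from −1.21 to 0.53 and Col6a3 from −1.46 to 0.0313. In FLASH against CONV Col1a1 ran from −0.50 to 0.42, Col3a1 from −0.80 to 0.64, Col6a3 from −0.46 to 0.75 and Col17a1 from −0.90 to 3.50.

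Replicate numbers were checked for pairing: over 9 same-number pairs the correlation ran from −0.81 to 0.37, and 0 of 10 libraries correlated best with their own number. FLASH replicate 4 has no library of its number in the other groups, so its outcome was fixed. The lymphocyte-rich libraries, which carry different numbers, correlated at 0.92 with each other, so this check cannot decide whether the numbers pair the libraries. With the replicate block 0 collagens were called in each comparison. Depth limits genes such as Col10a1, at or below 1 count.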
